A study of Mus musculus with 16 samples.

Results

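The collagen chain genes are the 44 mouse genes whose symbols follow the pattern of Col, a number, the letter a and a chain number, taken from a table of 55487 gene IDs. They were measured by bulk RNA sequencing in 16 libraries of skin cells sorted on CD45, a protein on the surface of white blood cells. The 4 groups of 4 libraries were CD45-negative (stromal) cells of stretched skin, stromal cells of control skin, CD45-positive (immune) cells of stretched skin and immune cells of control skin. Stretched skin had been put under hypobaric pressure (suction) 6 h before analysis, and control skin was unstretched and came from the same area. The sources used here give no strain, sex or age and do not say whether libraries came from separate mice. The p-values therefore cover only library-to-library spread, which may be technical.

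A collagen is a trimer of chains wound into a triple helix. Chains of the fibril-forming types make the tensile rope of the dermis, with the smaller FACIT collagens (fibril-associated collagens with interrupted triple helices) on its surface. Type IV chains make the sheet of basement membranes, type VI chains make beaded filaments around cells, and type VII and XVII collagens hold the epidermis to the dermis. In skin the main source of fibril-forming chains is the fibroblast.

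Levels of single genes are given as CPM, read counts scaled to a common library size with TMM, which adjusts each library for its composition. They are compared between genes only as CPM per kb of the longest annotated transcript. A gene was called when its adjusted p in edgeR's quasi-likelihood test was under 0.05, with Benjamini-Hochberg adjustment over all genes tested. Of the 44 members, 38 had enough reads to be tested in at least 1 of 5 comparisons and 26 in all 5. The other 6 were tested in none, and these were Col2a1, Col9a1 and Col9a2 of cartilage, Col10a1 of growth plate cartilage, Col22a1 of tissue junctions and Col25a1, a transmembrane chain known from neurons. Outside immune control library 4, none of these 6 genes passed 4.07 CPM in any library.

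Total counts were 21955174 to 26944965 in stromal stretched libraries, 13563586 to 20467010 in stromal control libraries, 7018743 to 20095580 in immune stretched libraries and 2645421 to 6662268 in immune control libraries. Depth thus differed between stretched and control libraries without overlap in both fractions, and depth and treatment cannot be told apart. Summed leukocyte markers (8 genes) reached 10.8 to 30.4 CPM in stromal stretched, 9.84 to 24.8 CPM in stromal control, 5799 to 13790 CPM in immune stretched and 4657 to 8550 CPM in immune control libraries. Several libraries stood apart. Immune control library 4, the shallowest, held 6209 CPM of olfactory and vomeronasal receptor reads, against 55.2 to 69.9 CPM in the other immune control libraries, and had the highest level of all 16 libraries for 21 of the 44 members. Stromal stretched libraries 7 and 8 held 424 and 208 CPM of these reads, against 20.6 and 23.7 CPM in stromal stretched libraries 5 and 6. Immune stretched library 2 held 32330 CPM of summed neutrophil markers (7 genes), against 104 to 682 CPM in the other immune stretched libraries, and its summed collagen level, 728 CPM, was the lowest of all 16.

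Promoter windows are shown for 3 chains on which results turn: Col1a2 and Col3a1, the 2 highest chains per kb in stromal cells, and Col4a2, whose start overlaps that of Col4a1. Each window is 300 bases, 250 before and 50 after the RefSeq start on GRCm38.p6, plus strand. Capitals mark GGGCGG (or CCGCCC on the other strand), CCAAT (or ATTGG) and TATAAA (or TTTATA). The windows were chosen after the levels were seen.
Col1a2, chr6:4505368-4505667: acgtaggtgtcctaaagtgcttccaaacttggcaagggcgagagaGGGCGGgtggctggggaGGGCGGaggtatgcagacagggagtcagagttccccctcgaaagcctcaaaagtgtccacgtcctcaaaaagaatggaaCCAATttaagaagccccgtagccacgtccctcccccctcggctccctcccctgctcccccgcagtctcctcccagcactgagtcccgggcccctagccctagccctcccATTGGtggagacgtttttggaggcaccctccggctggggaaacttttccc
Col3a1, chr1:45311288-45311587: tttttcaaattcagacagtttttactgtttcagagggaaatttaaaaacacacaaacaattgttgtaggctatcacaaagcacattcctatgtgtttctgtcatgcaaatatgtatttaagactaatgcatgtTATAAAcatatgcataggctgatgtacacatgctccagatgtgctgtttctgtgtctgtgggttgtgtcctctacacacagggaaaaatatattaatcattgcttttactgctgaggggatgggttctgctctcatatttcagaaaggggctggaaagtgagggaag
Col4a2, chr8:11312555-11312854: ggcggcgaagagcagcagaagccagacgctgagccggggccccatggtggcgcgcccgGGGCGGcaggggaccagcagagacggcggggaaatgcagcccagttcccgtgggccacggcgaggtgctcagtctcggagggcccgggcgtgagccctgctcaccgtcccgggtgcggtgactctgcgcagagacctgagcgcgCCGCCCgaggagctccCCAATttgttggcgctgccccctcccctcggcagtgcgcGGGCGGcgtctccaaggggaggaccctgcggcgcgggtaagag

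The Col1a2 window held 2 GGGCGG and 2 CCAAT matches, the Col4a2 window 3 GGGCGG and 1 CCAAT, and the Col3a1 window 1 TATAAA. RefSeq windows were found for 35 members (38 windows). Of these 38 windows, 60.5% held GGGCGG, 34.2% CCAAT and 13.2% TATAAA, against 35.7%, 37.4% and 13.6% of all 32851 windows. TATAAA and TTTATA can share letters, and a window counted once however many matches it held.

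The 44 chains summed to 31070 to 40480 CPM, scaled to library totals, in stromal stretched libraries and to 14940 to 42320 CPM in stromal control libraries. In the immune fraction the sum was 728 to 4896 CPM in stretched libraries and 989 to 3833 CPM in control libraries. Col1a1, Col1a2 and Col3a1, the chains of types I and III, made up 84.3% to 89.6% of the sum in stromal stretched libraries, 80.2% to 87.7% in stromal control libraries, 81.8% to 85.0% in immune stretched libraries and 66.3% to 80.4% in immune control libraries.

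By mean CPM per kb, the order in stromal stretched libraries was Col3a1 (2270 ± 267, SD, n = 4), Col1a2 (2068 ± 613), Col1a1 (1276 ± 455), Col6a1 (227 ± 23.2), Col6a2 (121 ± 8.97), Col5a1 (65.8 ± 6.94), Col4a1 (63.2 ± 3.81) and Col5a2 (61.5 ± 4.90). Neighbours within this order whose difference is under the SD are Col3a1 and Col1a2, and Col5a1, Col4a1 and Col5a2. In stromal control libraries the order began with Col1a2 (1741 ± 653) and Col3a1 (1604 ± 806), which also lay within 1 SD of each other. Immune stretched libraries followed the same first 4 names as stromal control libraries, with Col1a2 at 303 ± 148 and Col6a1 at 21.5 ± 13.3 CPM per kb. In immune control libraries Col4a1 (8.76 ± 3.84) and Col16a1 (7.17 ± 4.53) came right after the type I and III chains. Col6a2 (6.99 ± 2.71), Col6a3 (6.41 ± 2.14) and Col6a1 (5.08 ± 1.48) followed. From Col4a1 to Col6a1, neighbours in this order differed by less than the SD.

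**Figure D1:**
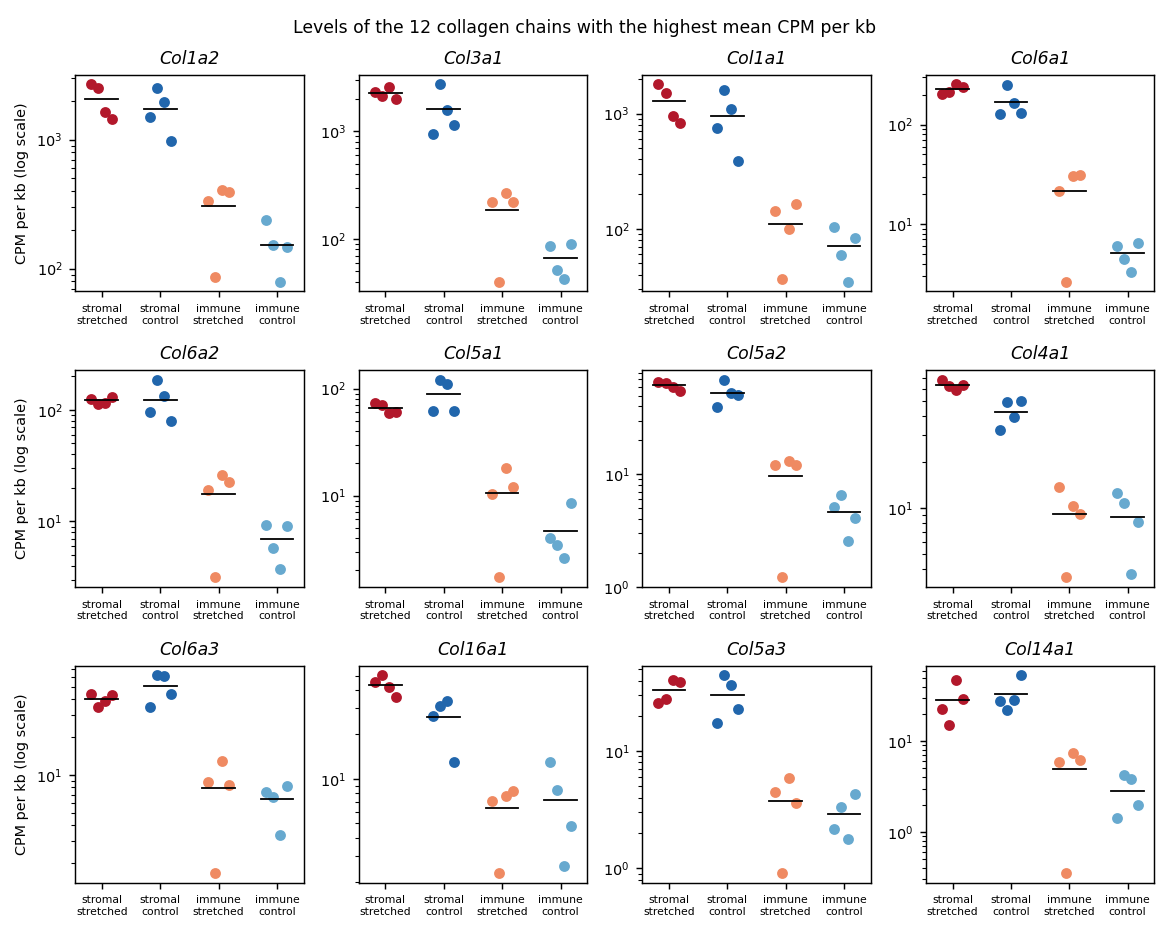
Level of the 12 chains with the highest mean CPM per kb, on a log axis, in each library of the 4 groups, with the mean as a bar. All stromal libraries lie above all immune libraries in each panel, and immune stretched library 2 is the low orange point in each panel.

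Stretched and control stromal cells were compared first, to ask which chains had changed 6 h after suction. Of 36 members tested, 1 was called, higher in stretched cells, and none lower, against 4.98% of all 16074 genes (2.05% higher and 2.93% lower). The median log2 fold change of the 36 was 0.27, against 0.01 over all genes tested, and 26 of the 36 were above 0. The median was 0.014 with offsets for transcript length and GC content (-0.0606 over all genes) and 0.527 without stromal control library 2. The 2 groups did not overlap for 5 members, all higher (Col4a1, Col4a2, Col11a2, Col16a1 and Col18a1). Of all genes, 7.74% lay higher and 10.2% lower without overlap. At an unadjusted p under 0.05 there were 10 members, against 26.8% of all genes.

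Col18a1, whose product is a basement membrane collagen with the fragment endostatin at its end, was the called member. It had 72.8, 70.5, 79.9 and 80.9 CPM in stromal stretched libraries, against 45.6, 48.9, 38.4 and 28.1 CPM in stromal control libraries. Every stretched library lay above every control library, and the log2 fold change was 0.93 ± 0.19 (SE, n = 4 each, adjusted p = 0.0424). The call was lost in 9 of 16 alternatives, among them leaving out any 1 of 6 libraries (stromal control 1, 2 or 3, or stromal stretched 6, 7 or 8), while the log2 fold change stayed between 0.62 and 1.09. Offsets for transcript length and GC content gave 0.62 (adjusted p = 0.073), and the fit without libraries 7 and 8 gave 0.82 (adjusted p = 0.276). Over all genes the number called moved between 0 and 1589 with 1 library left out. Pdgfrb, the 1 called of 8 pericyte and smooth muscle markers, was also higher, by 0.77 ± 0.19 on the log2 scale (adjusted p = 0.0483 in edgeR). Of the 8 markers, 6 had log2 fold changes above 0, and the 8 summed to 214 to 275 CPM in stromal stretched against 111 to 189 CPM in stromal control libraries. Hair follicle markers (7 genes, 3 tested, 2 called higher) summed to 27.2 to 132 CPM in stromal stretched against 6.74 to 26.4 CPM in stromal control libraries, also without overlap. Skeletal muscle markers (7 genes, 2 called higher and all 7 above 0) summed to 906 to 2027 CPM against 509 to 1260 CPM in the same groups. All 8 blood endothelial markers had log2 fold changes above 0 (median 0.40), none called. Of keratinocyte markers tested, 7 of 8 were above 0 (median 0.73), none called. Of lymphatic endothelial markers, 5 of 6 were above 0 (median 0.88), none called. The 10 fibroblast markers had a median log2 fold change of -0.14, with 1 above 0 and none called. The part of any of these cell types in the Col18a1 difference was not tested, and in bulk samples more cells of a type and more RNA per cell cannot be told apart.

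Col15a1, the close relative of Col18a1 in the multiplexin family, was not called. It ranged from 28.2 to 52.5 CPM in stromal stretched libraries and from 24.3 to 73.5 CPM in stromal control libraries, with overlap.

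Col4a1 and Col4a2, which make the sheet of all basement membranes, had groups without overlap. Col4a1 had 452, 412, 391 and 417 CPM in stromal stretched libraries, against 212, 324, 259 and 328 CPM in stromal control libraries. Col4a2 had 200, 172, 170 and 200 CPM in stromal stretched libraries, against 90.8, 160, 133 and 141 CPM in stromal control libraries. All 4 stretched libraries were above all 4 control libraries for both genes, yet neither passed in edgeR: log2 fold changes were 0.58 ± 0.19 for Col4a1 (SE, adjusted p = 0.0847) and 0.51 ± 0.20 for Col4a2 (adjusted p = 0.125). Of 16 alternatives, 2 called Col4a1 higher, DESeq2 (adjusted p = 0.0204) and limma voom (0.0165), and 1 called Col4a2 higher, limma voom (0.0382). Their gene starts overlap by 22 bases on opposite strands, and reads from that overlap cannot be told apart where counting ignores strand. The ratio of Col4a1 to Col4a2 (CPM per kb) was 2.03 to 2.34 in stromal stretched, 1.90 to 2.27 in stromal control, 1.75 to 2.69 in immune stretched and 1.62 to 2.48 in immune control libraries.

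The other chains of the basement membrane sheet had lower levels per kb: Col4a3, Col4a4 and Col4a5 were at 0.359 to 1.73 CPM per kb in stromal stretched libraries, beside means of 63.2 for Col4a1 and 28.8 for Col4a2. Col4a3, a chain of specialised basement membranes such as that of the kidney filter, had 3.07, 11.6, 8.83 and 5.66 CPM in stromal stretched libraries, against 4.64, 6.79, 4.83 and 7.80 CPM in stromal control libraries. Col4a4, its partner, had 4.86, 17.5, 9.37 and 8.84 CPM in stromal stretched libraries, against 16.4, 11.9, 10.8 and 19.8 CPM in stromal control libraries. Col4a5, which joins chains of both sheets, had 4.54, 3.92, 8.17 and 5.05 CPM in stromal stretched libraries, against 2.28, 3.45, 3.15 and 10.2 CPM in stromal control libraries. For these 3 genes the 2 groups overlapped, and log2 fold changes were 0.29 ± 0.38 for Col4a3, -0.53 ± 0.35 for Col4a4 and 0.20 ± 0.46 for Col4a5 (adjusted p of 0.369 to 0.817 in edgeR). Col4a6, which pairs with Col4a5 in skin, stayed at or under 0.881 CPM in stromal libraries and was too low to be tested here.

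The chains of the fibril showed no call. Col1a1 had 10640, 8987, 5697 and 4951 CPM in stromal stretched libraries, against 4476, 9485, 6479 and 2288 CPM in stromal control libraries. Col1a2 had 14340, 13380, 8771 and 7758 CPM in stromal stretched libraries, against 8021, 13410, 10560 and 5241 CPM in stromal control libraries. Col3a1 had 13000, 11770, 14540 and 11200 CPM in stromal stretched libraries, against 5229, 15240, 8877 and 6344 CPM in stromal control libraries. The 2 groups overlapped for all 3 genes, and stromal control library 2 lay within the stretched range for Col1a1 and Col1a2 and above it for Col3a1. Log2 fold changes were 0.42 ± 0.41 for Col1a1 (SE, adjusted p = 0.55), 0.26 ± 0.34 for Col1a2 (adjusted p = 0.665) and 0.52 ± 0.34 for Col3a1 (adjusted p = 0.36) in edgeR. The sign of Col1a2 turned in 2 alternatives.

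Type V chains, which co-assemble into the fibril and limit its diameter, did not pass either. Col5a1 had 618, 586, 495 and 514 CPM in stromal stretched libraries, against 523, 1015, 926 and 523 CPM in stromal control libraries. Col5a2 had 438, 428, 398 and 366 CPM in stromal stretched libraries, against 260, 456, 345 and 336 CPM in stromal control libraries. Col5a3 had 156, 170, 247 and 240 CPM in stromal stretched libraries, against 107, 271, 223 and 140 CPM in stromal control libraries. All 3 overlapped, with log2 fold changes of -0.42 ± 0.25 for Col5a1, 0.23 ± 0.20 for Col5a2 and 0.15 ± 0.30 for Col5a3 (adjusted p of 0.311 to 0.783 in edgeR).

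The FACIT chains Col16a1 and Col14a1 are found along fibrils in skin. Col16a1 had 235, 261, 217 and 186 CPM in stromal stretched libraries, against 139, 161, 174 and 68.03 CPM in stromal control libraries. Col14a1 had 146, 98.7, 305 and 187 CPM in stromal stretched libraries, against 180, 142, 186 and 343 CPM in stromal control libraries. For Col16a1 every stretched library lay above every control library, with a log2 fold change of 0.74 ± 0.27 (SE, n = 4 each, adjusted p = 0.113) in edgeR, and for Col14a1 the groups overlapped (-0.19 ± 0.36, adjusted p = 0.776). Col11a1, a chain of the cartilage fibril that skin fibroblasts also make at low level, had 3.40, 5.79, 4.57 and 6.40 CPM in stromal stretched libraries, against 3.34, 4.67, 2.96 and 0.283 CPM in stromal control libraries, with overlap and a log2 fold change of 0.85 ± 0.58 (SE, n = 4 each, adjusted p = 0.368) in edgeR. Col11a2, the other type XI chain, was singled out after its values were seen: it did not overlap, at 0.77 to 1.29 CPM in stromal stretched and 0.19 to 0.76 CPM in stromal control libraries (log2 fold change 1.10 ± 0.46, SE, adjusted p = 0.154 in edgeR). Of 15 alternatives, 1 called Col11a2 higher, limma voom (adjusted p = 0.0267).

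Type VI chains form filaments that link cells to the matrix. Col6a1 had 829, 873, 1038 and 974 CPM in stromal stretched libraries, against 528, 1015, 672 and 536 CPM in stromal control libraries. Col6a2 had 620, 550, 568 and 645 CPM in stromal stretched libraries, against 474, 910, 658 and 387 CPM in stromal control libraries. Col6a3 had 442, 350, 392 and 441 CPM in stromal stretched libraries, against 351, 625, 623 and 446 CPM in stromal control libraries. The 3 genes overlapped between the groups, with log2 fold changes of 0.45 ± 0.24 for Col6a1, -0.02 ± 0.26 for Col6a2 and -0.32 ± 0.22 for Col6a3 (adjusted p of 0.265 to 0.976 in edgeR). Col6a6, a chain that can take the place of Col6a3 and was singled out after its values were seen, was the tested member with the lowest log2 fold change, -0.62 ± 0.24 (SE, adjusted p = 0.126 in edgeR). Of 16 alternatives, 1 called Col6a6 lower, limma voom (adjusted p = 0.0165). Col6a4, another such chain, had 0.550, 0.579, 0.736 and 1.73 CPM in stromal stretched libraries, against 0.380, 0.318, 0.772 and 0.679 CPM in stromal control libraries, with overlap.

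The chains with the largest log2 fold changes in this comparison belonged to other families. Col17a1, the transmembrane collagen of hemidesmosomes in basal keratinocytes, had 5.37, 14.3, 20.2 and 18.8 CPM in stromal stretched libraries, against 6.92, 4.19, 3.54 and 0.452 CPM in stromal control libraries. Stretched library 5 lay within the control range, and the log2 fold change of 1.99 ± 0.62 (SE, n = 4 each, adjusted p = 0.0759) in edgeR was the largest. Col17a1 was called higher in 4 of 16 alternatives. These were DESeq2 (adjusted p = 0.00935), limma voom (0.0122), and edgeR with no filter (0.00115) or without stromal stretched library 5 (0.0425). Summed keratinocyte markers (9 genes) were 526, 1492, 1080 and 1582 CPM in the same stretched libraries, against 1551, 685, 571 and 136 CPM in the same control libraries, and their part in the difference was not tested. Col8a1, a short chain of vessels and of the cornea, had 48.95, 18.5, 15.4 and 19.8 CPM in stromal stretched libraries, against 12.3, 10.02, 16.9 and 8.03 CPM in stromal control libraries. Stretched library 5 stood far above the others, stretched library 7 lay within the control range, and the log2 fold change was 1.12 ± 0.37 (SE, n = 4 each, adjusted p = 0.0874) in edgeR. Of 16 alternatives, 2 called Col8a1 higher: DESeq2 (adjusted p = 0.0276) and edgeR with no filter (0.0105). Col26a1 had 0.321, 1.02, 1.74 and 1.05 CPM in stromal stretched libraries, against 0.684, 0.477, 0.258 and 0 CPM in stromal control libraries, with overlap and a log2 fold change of 1.59 ± 0.76 (SE, n = 4 each, adjusted p = 0.211) in edgeR.

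In the immune fraction, stretched against control, none of 27 members tested was called, and 2 had an unadjusted p under 0.05. Over all 14183 genes edgeR called 0.0%, with 17.4% at an unadjusted p under 0.05, while DESeq2 called 781 genes and limma voom 888. No member had groups without overlap, where 8.63% of all genes lay higher and 2.88% lower without overlap. The median log2 fold change of the 27 was -0.17, against -0.02 over all genes, and it turned positive (0.26) without immune control library 4.

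The 2 members with an unadjusted p under 0.05 were Col6a1 and Col3a1. Col6a1 had 88.7, 10.8, 126 and 128 CPM in immune stretched libraries, against 24.9, 18.2, 13.6 and 26.7 CPM in immune control libraries. Col3a1 had 1219, 223, 1488 and 1233 CPM in immune stretched libraries, against 473, 284, 236 and 498 CPM in immune control libraries. Stretched libraries 1, 7 and 8 lay above all control libraries for both genes, and stretched library 2 lay below all of them. Log2 fold changes were 1.85 ± 0.57 for Col6a1 (SE, adjusted p = 0.189) and 1.27 ± 0.50 for Col3a1 (adjusted p = 0.245) in edgeR. Col6a1 was called higher in 5 of 17 alternatives, and its log2 fold change stayed between 1.62 and 2.24 over all 17. Among the 5 were DESeq2 (adjusted p = 0.0399), limma voom (0.0408) and an edgeR fit of all 16 libraries (0.0361). The others were edgeR without stretched library 2 (log2 fold change 2.22, adjusted p = 0.0237) and without both that library and the shallowest immune control library (0.0479). Col3a1 was called higher in 1 of 17, limma voom (adjusted p = 0.0463). Summed fibroblast markers (10 genes) were 4651, 848, 5890 and 6642 CPM in the same stretched libraries, against 5298, 3010, 819 and 1159 CPM in the same control libraries, and their part in these differences was not tested.

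For the remaining abundant chains stretched library 2 was again the lowest stretched library. Col1a1 had 838, 219, 585 and 980 CPM in immune stretched libraries, against 615, 351, 206 and 498 CPM in immune control libraries. Col1a2 had 1774, 459, 2169 and 2084 CPM in immune stretched libraries, against 1264, 818, 424 and 784 CPM in immune control libraries. Log2 fold changes were 0.43 ± 0.46 for Col1a1 and 0.74 ± 0.50 for Col1a2 (adjusted p of 0.45 and 0.637 in edgeR for Col1a2 and Col1a1). Col6a2 had 94.2, 15.6, 129 and 111 CPM in immune stretched libraries, against 45.4, 28.5, 18.2 and 45.2 CPM in immune control libraries. Col6a3 had 88.8, 17.02, 130 and 84.5 CPM in immune stretched libraries, against 73.97, 67.9, 33.8 and 83.6 CPM in immune control libraries. Of these, Col6a2 had a log2 fold change of 1.13 ± 0.52 and Col6a3 of 0.07 ± 0.49, and neither passed. Neither did the type V chains. Col5a1 had 87.1, 14.5, 153 and 102 CPM in immune stretched libraries, against 33.8, 29.2, 21.9 and 71.9 CPM in immune control libraries. Col5a2 had 80.5, 8.10, 86.6 and 80.3 CPM in immune stretched libraries, against 34.03, 43.5, 17.02 and 27.2 CPM in immune control libraries. Col5a3 had 27.6, 5.61, 35.97 and 21.96 CPM in immune stretched libraries, against 13.2, 20.5, 10.8 and 26.1 CPM in immune control libraries. Immune stretched library 2 was the lowest of the 8 libraries for each of the 3, and log2 fold changes were 0.98 ± 0.56, 0.79 ± 0.59 and 0.13 ± 0.49 in that order of genes, none called.

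The basement membrane chains in the immune fraction were Col4a1 with 90.8, 23.5, 67.8 and 60.9 CPM in immune stretched libraries, against 82.9, 70.9, 24.4 and 53.4 CPM in immune control libraries, and Col4a2 with 43.5, 8.51, 36.8 and 33.9 CPM in immune stretched libraries, against 45.2, 27.9, 12.6 and 32.1 CPM in immune control libraries. The groups overlapped and the signs of both log2 fold changes (-0.18 ± 0.45 and -0.16 ± 0.47) turned in 7 and in 5 alternatives. Col18a1 had 14.6, 6.43, 13.5 and 17.9 CPM in immune stretched libraries, against 15.9, 15.1, 4.44 and 9.59 CPM in immune control libraries, with a log2 fold change of -0.03 ± 0.46 that turned in 9. Blood endothelial markers (8 genes), of cells that lay down such membranes, summed to 73.1 to 328 CPM in immune stretched and 133 to 784 CPM in immune control libraries, against 48.0 to 89.6 CPM in stromal stretched and 20.8 to 66.1 CPM in stromal control libraries. The part of these cells was not tested.

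Several chains were highest in immune control library 4. Col4a3 had 2.07, 0.415, 1.75 and 1.43 CPM in immune stretched libraries, against 0.408, 16.4, 0.740 and 1.95 CPM in immune control libraries. Col4a4 had 5.63, 0.208, 4.54 and 4.88 CPM in immune stretched libraries, against 1.43, 17.5, 2.71 and 2.09 CPM in immune control libraries. Col8a1 had 4.84, 0.208, 4.67 and 4.93 CPM in immune stretched libraries, against 13.2, 20.97, 0.493 and 0.556 CPM in immune control libraries. In all 3 genes immune control library 4 was the highest of the 8 immune libraries, and immune stretched library 2 was the lowest stretched library. The log2 fold change of Col4a3 was -2.15 ± 1.09 (SE), and 0.32 without immune control library 4. Col4a5 had 1.28, 0, 1.23 and 1.27 CPM in immune stretched libraries, against 1.02, 22.3, 0.247 and 0.139 CPM in immune control libraries. Col11a1 had 0.494, 0, 0.194 and 0.796 CPM in immune stretched libraries, against 0.204, 17.1, 0 and 0.556 CPM in immune control libraries. Both were highest in immune control library 4, at under 2 CPM in the other immune libraries, and did not pass the filter on low counts for the immune comparison. Col4a6 had 0.296, 0, 0.0648 and 0.530 CPM in immune stretched libraries, against 0.204, 1.08, 0 and 0.417 CPM in immune control libraries, and 0.367, 0.801, 0.465 and 0.881 CPM in stromal stretched libraries, against 0.304, 0.318, 0.0644 and 0.0565 CPM in stromal control libraries. It passed the filter only between the stretched fractions, and its highest immune value was again in immune control library 4. Col16a1 had 36.7, 12.04, 39.99 and 43.3 CPM in immune stretched libraries, against 67.2, 43.9, 13.3 and 24.9 CPM in immune control libraries. Col14a1 had 37.6, 2.28, 47.5 and 40.5 CPM in immune stretched libraries, against 9.17, 27.02, 24.4 and 12.7 CPM in immune control libraries. Both overlapped between the groups. Col17a1 had 13.1, 0.623, 2.79 and 8.22 CPM in immune stretched libraries, against 35.2, 15.6, 0.247 and 1.67 CPM in immune control libraries. The level of Col17a1 in immune control library 3 stood beside 2269 CPM of summed keratinocyte markers, the most of all 16 libraries, and the part of these was not tested.

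**Figure D2:**
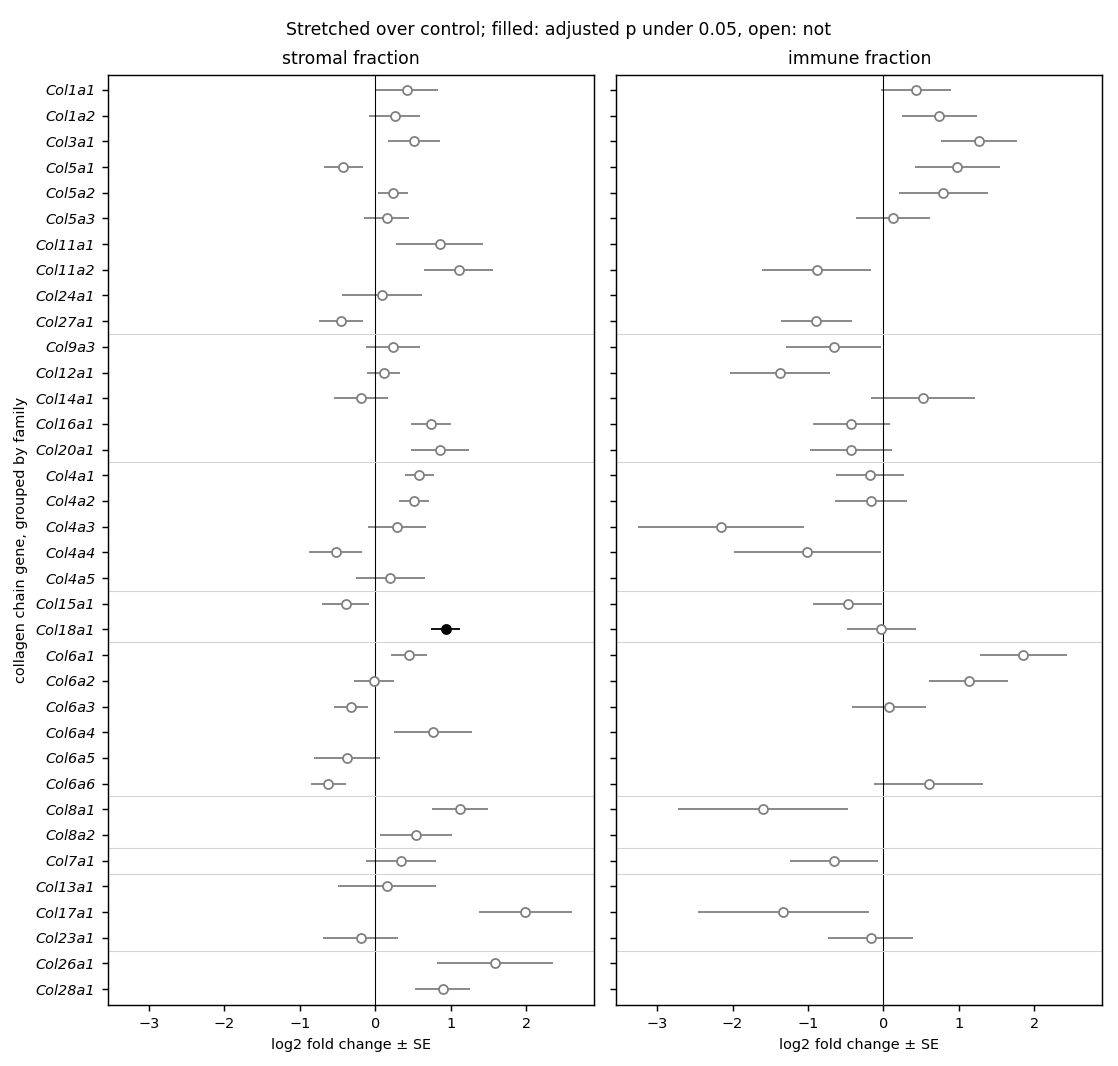
Log2 fold change of stretched over control with its SE for each chain tested, stromal fraction on the left and immune fraction on the right, families separated by lines. Col18a1 in the stromal fraction (0.93) is the filled point, the 1 called.

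The difference of the stretch effects, stromal minus immune, was not called for any of 37 members tested (7 at an unadjusted p under 0.05), against 0.0% of 18295 genes (23.1% at an unadjusted p under 0.05), while DESeq2 called 1609 genes. The median log2 difference was 0.72, against -0.03 over all genes, and -0.33 without immune control library 4. Col6a1 had a difference of -1.62 ± 0.69 (SE, n = 4 in each group, adjusted p = 0.175 in edgeR), Col5a1 of -1.59 ± 0.70 and Col6a2 of -1.35 ± 0.65. The largest positive differences were those of Col19a1, a FACIT chain known from muscle and neurons, Col6a4 and Col26a1.

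Col19a1 had 0.275, 0.401, 2.32 and 1.35 CPM in stromal stretched libraries, against 0, 0.212, 0.193 and 0.0565 CPM in stromal control libraries. In the immune fraction it had 0, 0, 0.778 and 0.477 CPM in immune stretched libraries, against 0.408, 23.8, 0.493 and 0.556 CPM in immune control libraries. Its difference of 7.28 ± 1.94 (SE, adjusted p = 0.0775 in edgeR) was 3.50 without immune control library 4. Col6a4 had 0.198, 0, 0.130 and 0.0531 CPM in immune stretched libraries, against 0, 6.70, 0 and 0 CPM in immune control libraries, and Col26a1 had 0.593, 0, 0 and 0.106 CPM in immune stretched libraries, against 1.43, 4.76, 0 and 0.139 CPM in immune control libraries. Immune control library 4 was the highest immune library for both genes. Without it the difference of Col6a4 was -3.02, in place of 4.72 ± 1.79, and that of Col26a1 was 3.05, in place of 4.70 ± 1.74.

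Stromal and immune cells were compared under the same condition to ask which chains marked the stromal fraction. In control skin 16 of 32 members tested were called, all higher in stromal cells, against 49.4% of all 15142 genes (22.8% higher). At an unadjusted p under 0.05 there were 17 members, against 56.2% of all genes. The same 16 were the members with groups that did not overlap, where 26.2% of all genes lay higher without overlap. In stretched skin 29 of 37 were called, all higher in stromal cells, against 49.0% of 17116 genes (25.1% higher), and 30 had an unadjusted p under 0.05, against 56.4% of all genes. The groups did not overlap for 27 members, all higher, where 21.7% of all genes lay higher without overlap. Median log2 fold changes were 2.48 in stretched skin and 1.38 in control skin, against 0.06 and -0.08 over all genes. Without immune control library 4 the median in control skin was 2.47, and over all alternatives it ran from 0.264 (no filter) to 2.47. Of the 29 called in stretched skin, Col4a5, Col6a4, Col6a5, Col11a1, Col13a1, Col24a1, Col26a1 and Col28a1 were too low for the immune comparison. They passed the filter here largely through their stromal reads, so their direction was partly set in advance. The counts and the median in stretched skin include them. Summed fibroblast markers were 24470 to 33950 CPM in stromal stretched, 23260 to 34680 CPM in stromal control, 848 to 6642 CPM in immune stretched and 819 to 5298 CPM in immune control libraries, and their part in the collagen reads of immune libraries was not tested.

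In stretched skin the 3 largest folds were of Col3a1 (3.74 ± 0.57, SE, adjusted p = 0.000644), Col11a1 (3.68 ± 0.58, adjusted p = 0.000831) and Col1a1 (3.66 ± 0.52, adjusted p = 0.000431) on the log2 scale in edgeR. In control skin they were of Col6a1 (4.92 ± 0.36, SE, adjusted p = 4.43e-06), Col3a1 (4.46 ± 0.50, adjusted p = 4.65e-05) and Col5a1 (4.13 ± 0.44, adjusted p = 3.52e-05). Col11a1 had only 5, 0, 3 and 15 reads in immune stretched libraries, against 74, 130, 118 and 189 in stromal stretched libraries. Its fold in stretched skin thus rests on few immune reads. Chains of types I, III and V were called in both skins, as were Col6a1, Col6a2, Col6a3, Col6a6, Col4a1, Col4a2, Col14a1, Col15a1, Col16a1 and Col18a1. Basement membrane chains had smaller folds in control skin: Col4a1 2.13 ± 0.37, Col4a2 2.02 ± 0.35 and Col18a1 1.69 ± 0.39, beside 2.92 ± 0.37, 2.72 ± 0.41 and 2.66 ± 0.29 in stretched skin. The 2 fraction comparisons share no library, and their difference is the one tested above, which was not called for these genes.

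Some chains were not called between the fractions, or not in every fit. Col17a1 had a log2 fold change of 1.36 ± 0.68 (SE, n = 4 each, adjusted p = 0.122) in stretched skin and -1.93 ± 1.09 (adjusted p = 0.162) in control skin, in edgeR. Col20a1, singled out after its values were seen, was at 2.45 to 4.10 CPM in stromal stretched, 1.16 to 3.19 CPM in stromal control, 1.25 to 4.56 CPM in immune stretched and 1.63 to 5.98 CPM in immune control libraries. Its log2 fold change in control skin was -1.29 ± 0.57 (SE, n = 4 each, adjusted p = 0.0807) in edgeR. It was called lower in 4 of 16 alternatives: DESeq2 (adjusted p = 0.0385), limma voom (0.00887), and edgeR without immune control library 3 (0.0461) or without stromal control library 1 (0.0445). A gene of the same strand shares 79 bases of its exons. Col7a1, the chain of anchoring fibrils and singled out after its values were seen, had 0.23 ± 0.64 in control skin (adjusted p = 0.784) and was called higher in stretched skin (1.25 ± 0.36, adjusted p = 0.0158), both in edgeR. That call was lost with length and GC offsets (0.516, adjusted p = 0.268), in a fit of all 16 libraries (adjusted p = 0.108) and without stromal stretched library 6 (adjusted p = 0.0568). Without immune control library 4, 25 members were called in control skin, 24 of them higher and 1 lower.

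**Figure D3:**
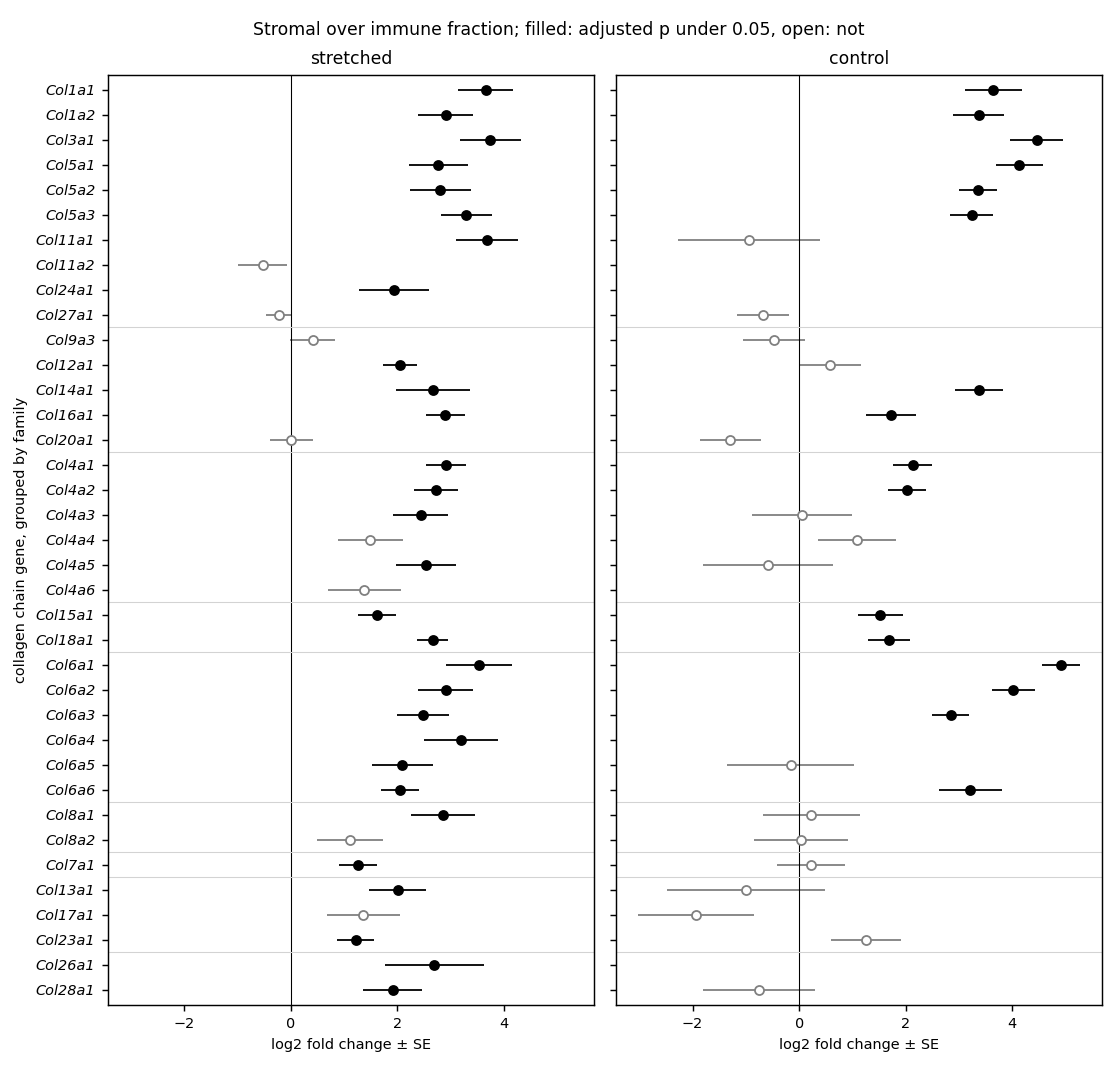
Log2 fold change of stromal over immune cells with its SE for each chain tested, stretched skin on the left and control skin on the right. Filled points are called: 29 of 37 in stretched skin and 16 of 32 in control skin, all higher in stromal cells.

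**Figure D4:**
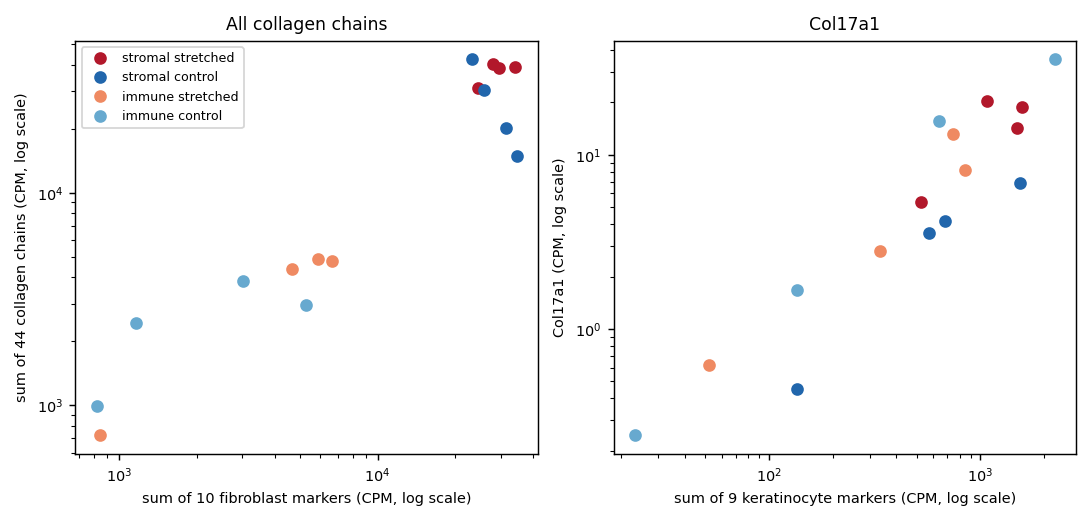
Summed level of the 44 chains against summed fibroblast markers (left) and Col17a1 against summed keratinocyte markers (right) in each library, both axes logarithmic. Stromal libraries lie at 14940 to 42320 CPM of collagen, and immune libraries at 728 to 4896 CPM.

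The ratios of partner chains, which leave out the level of collagen as a whole, were looked at after the values were seen (CPM per kb). Col6a1 to Col6a2 was 1.60 to 2.19 in stromal stretched, 1.22 to 1.66 in stromal control, 0.83 to 1.37 in immune stretched and 0.66 to 0.89 in immune control libraries. Col6a3 to Col6a2 was 0.31 to 0.35 in stromal stretched, 0.33 to 0.56 in stromal control, 0.37 to 0.53 in immune stretched and 0.79 to 1.16 in immune control libraries. Thus the 2 immune groups did not overlap for Col6a3 to Col6a2. Col5a1 to Col5a2 was 0.981 to 1.11 in stromal stretched, 1.23 to 2.11 in stromal control, 0.853 to 1.41 in immune stretched and 0.529 to 2.08 in immune control libraries, so the 2 stromal groups did not overlap, with a log2 difference of -0.617. Col1a1 to Col1a2 was 0.58 to 0.67 in stromal stretched, 0.39 to 0.64 in stromal control, 0.24 to 0.43 in immune stretched and 0.39 to 0.57 in immune control libraries. Col3a1 to Col1a2 was 0.846 to 1.59 in stromal stretched and 0.627 to 1.16 in stromal control libraries. It was 0.467 to 0.66 in immune stretched and 0.334 to 0.61 in immune control libraries. In 24 such relations, by a 2-sided exact permutation test, the smallest p was 0.0286, the smallest that 4 against 4 libraries can give. Between fractions, Col3a1 to Col1a2, Col6a1 to Col6a2 and Col6a3 to Col6a2 reached this floor in both skins. Col1a1 to Col1a2 reached it in stretched skin. Between stretched and control, Col6a3 to Col6a2 reached it in the immune and Col5a1 to Col5a2 in the stromal fraction. After Benjamini-Hochberg adjustment the smallest p was 0.0763, so none passed. With this floor a relation can pass only if many of the 24 reach it, so the adjusted test cannot decide.

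**Figure D5:**
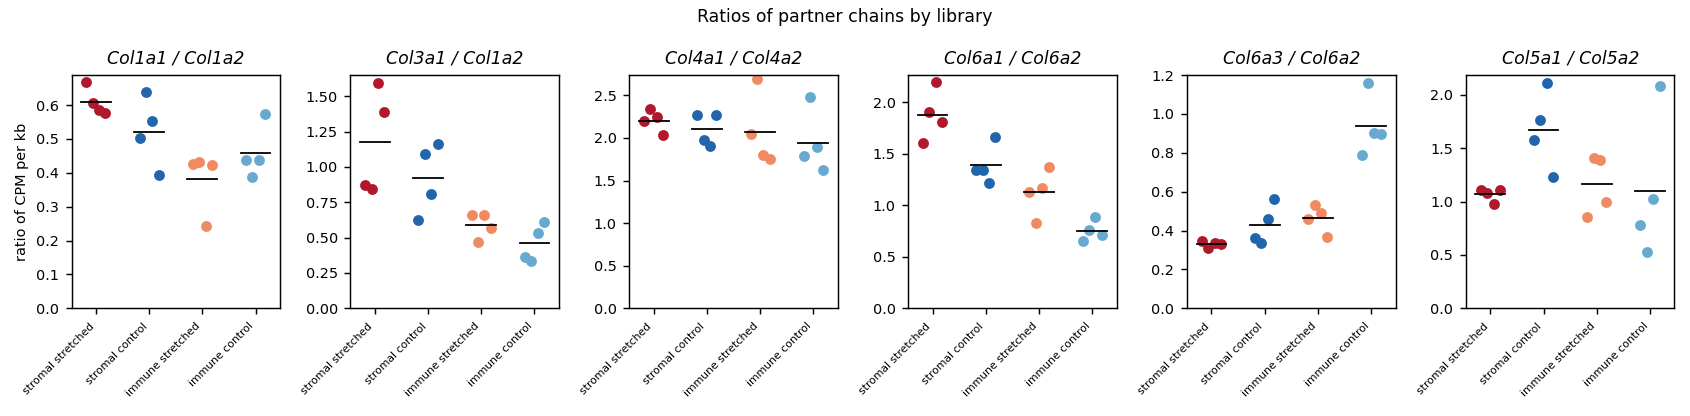
Ratio of CPM per kb between partner chains in each library, with the mean of each group as a bar. Col6a3 over Col6a2 is highest in immune control libraries (0.79 to 1.16), Col5a1 over Col5a2 is lower in stromal stretched (0.981 to 1.11) than in stromal control libraries (1.23 to 2.11), and Col4a1 over Col4a2 overlaps in all 4 groups.

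The genes that fold, modify, export, process, bind, sense and break down collagen were followed in 6 lists. In the stretch comparisons none of their members was called: 55 in the stromal fraction and 54 in the immune fraction were tested. Over all genes tested, 4.98% were called in the stromal and 0.0% in the immune comparison. The immune count is thus no result about these lists. The 19 genes of folding and modification had a median log2 fold change of -0.09 in stromal and 0.66 in immune cells. P3h2, a prolyl hydroxylase that acts on basement membrane collagen, had 1.95 ± 0.52 in stromal cells (SE, adjusted p = 0.0523 in edgeR), with no overlap. Ppib, a folding enzyme of the collagen helix, had -0.77 ± 0.21 in stromal cells (adjusted p = 0.0535 in edgeR), also with no overlap. Over all genes tested in stromal cells, 7.74% lay higher and 10.2% lower without overlap. P3h2, Ppib and Ddr1 (below) were singled out after their values were seen. Fibril-binding proteoglycans and glycoproteins had medians of 0.03 in stromal cells (11 genes) and 0.93 in immune cells (10 genes). Collagen receptors had 0.50 in stromal and 0.07 in immune cells (8 genes each), with Ddr1, a receptor kinase, at 0.75 ± 0.26 in stromal cells (adjusted p = 0.0941 in edgeR). Over all genes tested the medians were 0.01 in stromal and -0.02 in immune cells, and in the immune comparison the 10 fibroblast markers had a median of 0.99, with 9 of 10 above 0. The fibroblast markers share Dcn, Lum and Dpt with the fibril-binding list, so these medians are not independent. The part of fibroblasts in the immune medians was not tested.

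Between fractions, 22.8% of all genes were called higher in stromal cells of control skin and 25.1% in stretched skin. Of the fibril-binding genes, 10 of 11 were called higher in stretched skin and all 10 tested in control skin. Of the genes of folding and modification, 17 of 19 were called higher in stretched skin and 15 of 18 in control skin, of export and synthesis control 6 of 7 and 5 of 7, and of procollagen processing 5 of 7 and 4 of 6, with none lower in these 4 lists. The collagen receptors were mixed, with 5 of 9 called higher and 1 lower in stretched skin and 3 higher and 3 lower in control skin, the lower ones being Itga1, Itga2 and Lair1, a leukocyte receptor. Lair1 was the 1 called lower in stretched skin. Of the 4 genes of collagen breakdown inside cells, 2 were called higher and 1 lower in stretched skin, and 2 higher in control skin.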

How the data were processed

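The authors deposited raw, unnormalized counts for Ensembl genes, 1 column a library. The labels' protocols name the SMART-Seq mRNA LP kit for cDNA and Nextera XT for libraries. FastQC 0.11.9, STAR (no version) and mm10 stand in the submitters' processing notes. For the counter, its strand setting and multi-mapped reads, the sources used here give nothing. Reads carry no molecular identifiers, so counts are not counts of molecules.

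Symbols, coordinates and lengths came from GENCODE M21 (GRCm38), which matched 55394 of 55487 IDs. Each comparison used its own libraries in edgeR 4.0.16 (R 4.3.3) with TMM factors and the quasi-likelihood F test, after filterByExpr at a minimum count of 10 and a total of 15. The difference of effects used all 16 libraries. Standard errors were derived from the F statistic. Sums over lists are scaled to library totals. Alternatives included DESeq2 1.42.0 and limma 3.58.1 voom. The fit was tested on simulated data.

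The members and lists were chosen with earlier results of these data known. Values in every library are given for the 12 chains highest per kb, chains called between stretched and control or in the difference of effects, the 3 largest fold changes of each comparison at 1 CPM or more, and chains of the 3 head-to-head type IV gene pairs. Fold changes printed for other chains, the ratios and the promoter windows were chosen after values were seen. The length per kb was first taken over all exons of a gene and then changed to the longest transcript after a first look, because exons of retained-intron transcripts inflated it; the 12 highest chains were the same.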

Additional observations from a re-analysis of the deposited data

Results flagged for a closer look

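In 152 combinations of a chain and a group of 4 libraries, 18 had a library whose gap to its nearest neighbour was large for the group's range by Dixon's criterion. For normally distributed values this criterion flags about 1 in 20 groups. Low CPM values need not be so distributed, and the chance rate for these data was not measured. Of the 18, 10 were in immune control library 4, which was also the shallowest and held the most olfactory and vomeronasal receptor reads.

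Immune control library 4 was high for Col4a3 (16.4 CPM, nearest 1.95), Col4a4 (17.5, nearest 2.71), Col4a5 (22.3, nearest 1.02), Col6a4 (6.70, nearest 0.0) and Col6a5 (11, nearest 0.278). It was also high for Col11a1 (17.1 CPM, nearest 0.556), Col13a1 (27.9, nearest 0.278), Col19a1 (23.8, nearest 0.556), Col24a1 (4.76, nearest 0.556) and Col28a1 (8.43, nearest 0.408).

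Immune stretched library 2 was low for Col4a5 (0.0 CPM, nearest 1.23), Col5a2 (8.10, nearest 80.3) and Col8a1 (0.208, nearest 4.67). In the stromal fraction, stretched library 5 was high for Col8a1 (48.9 CPM, nearest 19.8), stretched library 7 for Col6a6 (24.6, nearest 15.1) and stretched library 8 for Col6a4 (1.73, nearest 0.736). Stromal control library 4 was high for Col4a5 (10.2 CPM, nearest 3.45) and low for Col23a1 (3.39, nearest 26.2).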

How the results depend on the processing

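The number of chains called and the median log2 fold change both moved with the setting. Stretched over control in the stromal fraction called 1 chain. DESeq2 called 4, limma voom 8 and a fit with no filter 5. The offsets that remove a trend on transcript length and GC content called 0, as did a fit of all 16 libraries and a fit without stromal stretched libraries 7 and 8. Leaving out 1 library at a time called 0 to 2. The immune stretch comparison called 0, while DESeq2 called 1, limma voom 2, a fit of all 16 libraries 1, and leaving out immune stretched library 2 and immune control library 4 called 1, with 0 to 1 when 1 library was left out. The difference of effects called 0, while DESeq2 called 1 and no filter 4, all positive. Leaving out immune stretched library 2 and immune control library 4 called 2, both negative. These were Col6a1 (adjusted p = 0.0227 in edgeR) and Col5a2 (0.034). Leaving out 1 library called 0 to 2, none of them negative. Stromal over immune in control skin called 16, and 25 without immune control library 4, with 16 to 25 over the single libraries. In stretched skin it called 29, and 20 to 33 over the alternatives. A fit of all 16 libraries called 20, a fit without stromal stretched libraries 7 and 8 called 21, and limma voom 33. Length and GC offsets called 26 higher and 1 lower in stretched skin. Over the alternatives the median ran from 0.014 to 0.527 in the stromal stretch comparison, -0.696 to 0.533 in the immune one, -0.477 to 1.178 for the difference of effects, 2.054 to 2.609 between fractions in stretched skin and 0.264 to 2.465 in control skin, where 13 of 17 alternatives moved it. The cause of these changes was not tested.

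The labels do not say what the numbers in the titles mean, and they were not used to pair the samples in the main fits. Correlations of deviations between libraries of the same number were -0.107 to 0.186, which cannot exclude that such libraries share a mouse. With the number as a replicate block, the fractions differed for 12 chains in control skin (11 higher and 1 lower, with only 2 shared numbers; Col1a1, Col1a2, Col15a1, Col16a1 and Col18a1 were no longer called, and Col17a1 was called lower) and for 31 in stretched skin, and the difference of effects was called for 0.

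Signs of log2 fold changes turned often. Over all members, 210 of 3119 values under alternatives had the other sign, in 56 of 169 gene and comparison combinations, and over the members named by rule 108 of 1968, in 30 of 106. No named chain turned in stretched-skin fractions. RLE scale factors gave 0.039 for Col5a3 and 0.0 for Col1a1 in the difference of stretch effects. It gave -0.018 for Col4a3 in the control-skin comparison of fractions. DESeq2 gave 0.042 for Col5a3 and 0.0 for Col1a1 in the difference of stretch effects. It gave -0.034 for Col4a3 in the control-skin comparison of fractions. limma voom gave -0.083 for Col1a2 in the stromal stretch comparison. It gave 0.406 for the median, 0.706 for Col4a4, 0.332 for Col16a1, 0.236 for Col4a1, 0.151 for Col4a2, 0.508 for Col18a1, 1.693 for Col8a1 and 1.069 for Col17a1 in the immune stretch comparison. It gave -0.296 for the median, -1.261 for Col4a4, -0.014 for Col16a1, -0.978 for Col8a1 and -0.785 for Col4a5 in the difference of stretch effects. It gave 2.327 for Col11a1, 0.362 for Col17a1 and 2.816 for Col4a5 in the control-skin comparison of fractions. No filter on low counts gave 0.146 for Col18a1 in the immune stretch comparison. A filter of 50 reads in 4 libraries gave 0.007 for Col6a2 in the stromal stretch comparison. It gave -0.219 for Col4a3 and -0.005 for Col8a1 in the control-skin comparison of fractions. Length and GC offsets gave -0.047 for Col5a2, -0.041 for Col4a3, -0.002 for Col1a2, -0.194 for Col5a3 and -0.198 for Col4a5 in the stromal stretch comparison. It gave 0.013 for Col18a1 in the immune stretch comparison. It gave -0.808 for Col4a4 in the difference of stretch effects. It gave 0.051 for Col11a1 and 0.166 for Col4a5 in the control-skin comparison of fractions. A fit of all 16 libraries gave 0.041 for Col4a1, 0.04 for Col4a2 and 0.202 for Col18a1 in the immune stretch comparison. Leaving out stromal stretched libraries 7 and 8 and immune control library 4 gave -0.204 for Col5a3 and -0.188 for Col4a5 in the stromal stretch comparison. It gave 0.26 for the median, 0.768 for Col4a4, 0.317 for Col4a3, 0.046 for Col4a1 and 0.26 for Col18a1 in the immune stretch comparison. It gave -0.372 for the median, -1.297 for Col4a4, -0.12 for Col4a3, 0.236 for Col1a1 and -1.291 for Col4a5 in the difference of stretch effects. It gave 3.23 for Col11a1 and 3.372 for Col4a5 in the control-skin comparison of fractions. Leaving out immune stretched library 2 and immune control library 4 gave 0.533 for the median, 1.128 for Col4a4, 0.543 for Col4a3, 0.029 for Col16a1, 0.302 for Col4a1, 0.194 for Col4a2 and 0.463 for Col18a1 in the immune stretch comparison. It gave -0.477 for the median, -1.824 for Col4a4, -0.391 for Col4a3, -3.267 for Col6a4 and -1.304 for Col4a5 in the difference of stretch effects. The replicate block on the title number gave -0.529 for Col4a4 in the difference of stretch effects. It gave -0.704 for Col8a1 in the control-skin comparison of fractions. Leaving out each library in turn also turned signs, with the ranges that follow. In the stromal stretch comparison these were -0.558 to 0.174 for Col14a1, -0.023 to 0.538 for Col4a3, -0.081 to 0.906 for Col4a5, -0.018 to 0.439 for Col5a3 and -0.17 to 0.291 for Col6a2. In the immune stretch comparison these were -0.316 to 0.26 for Col18a1, -0.479 to 0.082 for Col4a1, -0.429 to 0.137 for Col4a2, -2.551 to 0.317 for Col4a3, -1.393 to 0.768 for Col4a4, -0.199 to 0.444 for Col5a3, -0.283 to 0.407 for Col6a3 and -0.441 to 0.26 for the median. In the difference of stretch effects these were -0.457 to 0.389 for Col1a1, -0.181 to 2.743 for Col4a3, -1.5 to 0.723 for Col4a4, -1.01 to 3.805 for Col4a5, -0.497 to 0.279 for Col5a3, -3.017 to 5.45 for Col6a4 and -0.325 to 1.178 for the median. In the control-skin comparison of fractions these were -1.292 to 3.23 for Col11a1, -0.246 to 2.465 for Col4a3, -1.267 to 3.372 for Col4a5 and -0.12 to 1.3 for Col8a1. The cause of these turns was not tested.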
